A study of Mus musculus with 5 samples.

Results

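Of 41 interferon and RNA sensing response genes, 39 had a probe set of their own on the array, out of 18193 genes with at least 1 such probe set. The genes were chosen by symbol from knowledge of the pathway, and a probe set was used where the platform annotation gave exactly 1 symbol. Isg15 shared its probe set with a second gene symbol, and no single-symbol probe set was found for Ifi44. The 39 genes held 67 probe sets, and 16 genes had more than 1. RNA came from 5 lines derived from the mouse neuroblastoma cells Neuro2A, each hybridised once to an Affymetrix 3' expression array. The study, as its design text states, was made to examine how KDM7, a histone demethylase encoded by Kdm7a, affects gene expression. Among the lines, 3 carried a knockdown vector, which was KDM7 vector 1 in KDM7 knockdown line 1, KDM7 vector 2 in KDM7 knockdown line 2 and a vector against EGFP, the coding sequence of a fluorescent protein from jellyfish, in the EGFP knockdown line. The other 2 carried none, namely a line with the empty vector and the untransfected parental cells. All lines shared the Neuro2A background and standard culture. The KDM7 knockdown lines were stable lines, and the labels do not say whether any line was a single clone or how the knockdown RNA was expressed. Each line was measured once, so the spread within an arm holds differences between lines and constructs, and p-values measure the spread between these 5 arrays only.

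Cells detect foreign or misplaced RNA through endosomal Toll-like receptors and through the cytosolic helicases RIG-I and MDA5, which signal through the mitochondrial adaptor MAVS. Interferon regulatory factors then switch on type I interferon, which acts through its receptor on a transcription factor complex that holds STAT2 and IRF9. That complex binds interferon-stimulated response elements upstream of antiviral effector genes, of the antigen presentation machinery and of several chemokines. Neuroblastoma cells are known for low expression of major histocompatibility complex class I genes.

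The letters that interferon regulatory factors bind were common upstream of these genes. The motif GAAANNGAA, searched on both strands in the 250 bases before each start site of the RefSeq table for build GRCm38.p6, was found at 13 of the 32 listed genes that the table held (40.6%), against 2211 of 27025 genes in all (8.18%). The STAT motif TTCNNNGAA, which reads the same on both strands, was found at 6 of 32 (18.8%) against 8.13% of all genes. The 2 motifs differ in their fixed letters and spacing and can overlap, and a match only describes the letters. The upstream sequences below are shown because they carry these motifs in genes described here. Capitals mark the matches, which are to the interferon regulatory factor motif in all but Psmb8, where the match is to the STAT motif. The sequences lie on the + strand of chr19:34640639-34640888 (Ifit1), chr19:34583279-34583528 (Ifit3), chr10:128270248-128270497 (Stat2), chr2:122147437-122147686 (B2m) and chr17:34197945-34198194 (Psmb8).
Ifit1: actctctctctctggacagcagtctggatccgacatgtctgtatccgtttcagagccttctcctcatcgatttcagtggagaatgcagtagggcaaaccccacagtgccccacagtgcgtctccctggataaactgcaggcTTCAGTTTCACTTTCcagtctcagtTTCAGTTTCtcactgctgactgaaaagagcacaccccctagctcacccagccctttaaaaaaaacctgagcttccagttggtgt
Ifit3: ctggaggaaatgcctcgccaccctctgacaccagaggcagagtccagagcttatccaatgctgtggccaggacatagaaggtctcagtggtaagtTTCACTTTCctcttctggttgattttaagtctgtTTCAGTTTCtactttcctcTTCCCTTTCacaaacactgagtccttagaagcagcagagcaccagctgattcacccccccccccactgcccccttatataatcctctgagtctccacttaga
Stat2: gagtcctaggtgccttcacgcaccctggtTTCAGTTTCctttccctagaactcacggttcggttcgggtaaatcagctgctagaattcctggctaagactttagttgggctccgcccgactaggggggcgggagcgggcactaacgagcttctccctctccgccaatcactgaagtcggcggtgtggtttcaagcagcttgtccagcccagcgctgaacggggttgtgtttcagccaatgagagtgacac
B2m: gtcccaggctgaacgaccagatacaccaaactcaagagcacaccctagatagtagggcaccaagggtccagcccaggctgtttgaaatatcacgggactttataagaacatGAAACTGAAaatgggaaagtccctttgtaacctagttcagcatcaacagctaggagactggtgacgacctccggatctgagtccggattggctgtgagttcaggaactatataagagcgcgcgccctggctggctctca
Psmb8: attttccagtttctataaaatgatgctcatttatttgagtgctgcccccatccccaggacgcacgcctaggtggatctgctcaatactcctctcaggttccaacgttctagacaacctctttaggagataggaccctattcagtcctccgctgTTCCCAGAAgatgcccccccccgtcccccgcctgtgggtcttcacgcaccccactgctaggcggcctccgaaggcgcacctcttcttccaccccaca

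Ifit1 and Ifit3, classical interferon-induced genes, held 3 matches each, while Stat2 and B2m held 1 each. Signals of different probe sets do not rank RNA amounts between genes, since probes differ in how well they bind.

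The deposited values are MAS5 signals on a linear scale, and a mean signal of 40.5 over the 5 lines, the median of all probe sets on the log2 scale, was the least at which a probe set was tested. Of the 39 genes, 27 reached it by their brightest probe set and 12 did not by any. This level is not a detection call. The 5 arrays correlated at 0.964 to 0.983 in log2 signal over the 22519 probe sets kept, and the parental array had the lowest median correlation with the others, at 0.967. Kdm7a was lower in the library of each KDM7 knockdown line than in every other line, with a signal of 231 and 143 in KDM7 knockdown lines 1 and 2, against 872, 648 and 660 in the EGFP knockdown, empty vector and parental lines by its brightest probe set. Of 16 sympathoadrenal and neuroblastoma markers 12 passed the filter, among them Phox2a, Hand2 and Stmn2, while Th, the rate-limiting enzyme of catecholamine synthesis, did not. Of 10 blood and immune cell markers 2 passed, Csf1r and Laptm5, and the pan-leukocyte marker Ptprc had signals of 0.75 to 21.9. The summed signal of the 10 markers ran from 271 in the empty vector line to 369 in KDM7 knockdown line 1, and the part of such cells in the results was not tested. In bulk RNA, fewer cells of a type and less RNA per cell cannot be told apart.

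Several classical interferon-induced genes were under the filter. The 12 genes that did not reach it were Ifit1, Ifit2 and Ifit3, which bind viral RNA or block translation, Mx1 and Mx2, antiviral GTPases, Oas1a and Oasl2 of the oligoadenylate synthetase family, Ifih1 and Dhx58, cytosolic RNA helicases of the RIG-I family, Tlr3, the endosomal receptor for double-stranded RNA, Nlrc5, an activator of class I genes, and Ccl5, a chemokine. Their median signal was 13.3, 12.1 and 10.1 in KDM7 knockdown lines 1 and 2 and the EGFP knockdown line, against 16.6 and 16.6 in the empty vector and parental lines. Only Ifit3, Mx1 and Oas1a reached 40.5 in any line by their brightest probe set. Oas1a, an enzyme that makes the activator of RNase L, had a signal of 33.0, 137 and 11.2 in KDM7 knockdown lines 1 and 2 and the EGFP knockdown line, against 15.8 and 16.8 in the empty vector and parental lines. KDM7 knockdown line 2 was the highest, and both KDM7 knockdown lines lay above the other 3, while the lines with and without a knockdown vector overlapped. Ifit3 had 65.1, 50.5 and 30.3, against 39.2 and 24.6 in the same order, and Mx1 had 29.4, 53.4 and 24.1, against 40.5 and 22.6. For Ifit3 too both KDM7 knockdown lines lay above the other 3, and for both genes the lines with and without a knockdown vector overlapped. These genes are shown because a line reached 40.5, and Oas1a in KDM7 knockdown line 1 was under that level. Dhx58, by its brightest probe set, had both KDM7 knockdown lines below the other 3. Of all probe sets above the filter, 12.6% had both KDM7 knockdown lines above the other 3 and 10.2% had both below. Genes under the filter were not tested. The interferon genes themselves, from the list of other pathway genes, were as dim, with Ifnb1 at 19.7, 19.7 and 16.0, against 6.41 and 13.8, and Ifna2, Ifna4 and Ifng below 20 in every line.

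**Figure D1:**
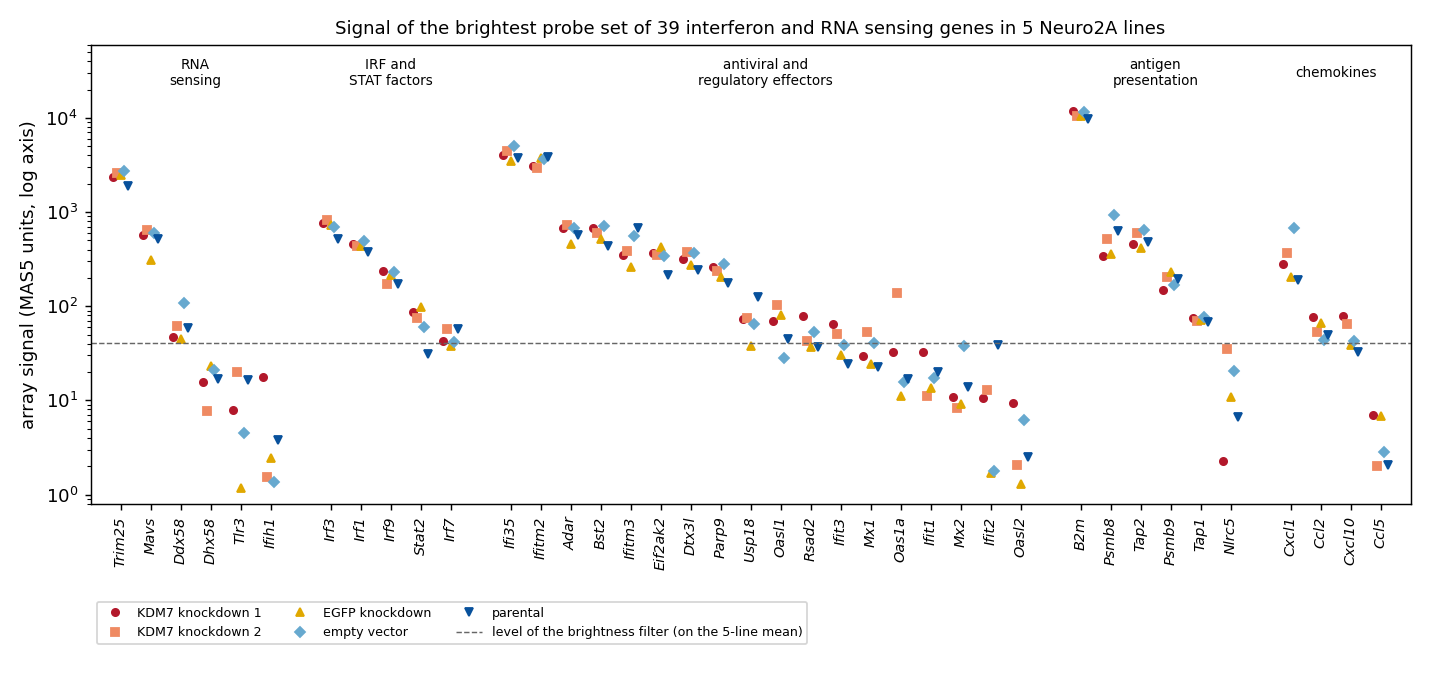
Array signal (log axis) of the brightest probe set of each of the 39 genes in the 5 lines, grouped by role, with the filter level of 40.5 as a dashed line. Points of 1 gene are the 5 lines, 1 array each. B2m runs from 9798 to 11740, and of the 12 genes under the filter only Ifit3, Mx1 and Oas1a have points at or above the line.

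The comparison of the 3 lines with a knockdown vector against the 2 without asks whether carrying such a vector went with a change in these genes. Of the 3 lines 2 were KDM7 knockdown lines with low Kdm7a. Carrying a knockdown vector and loss of Kdm7a RNA therefore cannot be told apart in this comparison. Only the EGFP knockdown line carried such a vector without that loss. No gene passed. Limma called 0 of the 22519 probe sets at an adjusted p under 0.05 (0%), none of them a listed gene, with a smallest adjusted p of 0.539 over all probe sets. Before adjustment, 4 of the 27 genes (14.8%) had a limma p under 0.05, namely Oasl1, Stat2, Ifitm3 and Psmb8, against 7.82% of all probe sets tested. The direction was mixed, with Oasl1 and Stat2 higher and Ifitm3 and Psmb8 lower in the knockdown vector lines. The median log2 difference of the 27 genes was 0.04, against 0.03 over all probe sets, and 16 of the 27 differences were above 0. All 3 knockdown vector lines lay above both lines without for 5 of 27 genes (18.5%), where 15.9% of all probe sets did so, and below for 2 (7.41%), where 9.69% did. Both shares were near those of the whole array. Median centring of the arrays, which moved the median difference of all probe sets to -0.14, turned the split of 5 above and 2 below to 2 above (7.41%) and 5 below (18.5%), where the shares of all probe sets became 5.49% above and 26.9% below. Without the empty vector line the split was 15 above and 5 below, without the parental line 5 above and 11 below, and without KDM7 knockdown line 2 it was 5 above and 4 below. The shares of all probe sets moved too, since fewer lines have to be apart. They were 37.4% above and 26.8% below without the empty vector line, and 29.4% above and 24.2% below without the parental line. Without KDM7 knockdown line 2 they were 21.6% above and 14.1% below, where the listed genes had 18.5% and 14.8%.

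**Figure D2:**
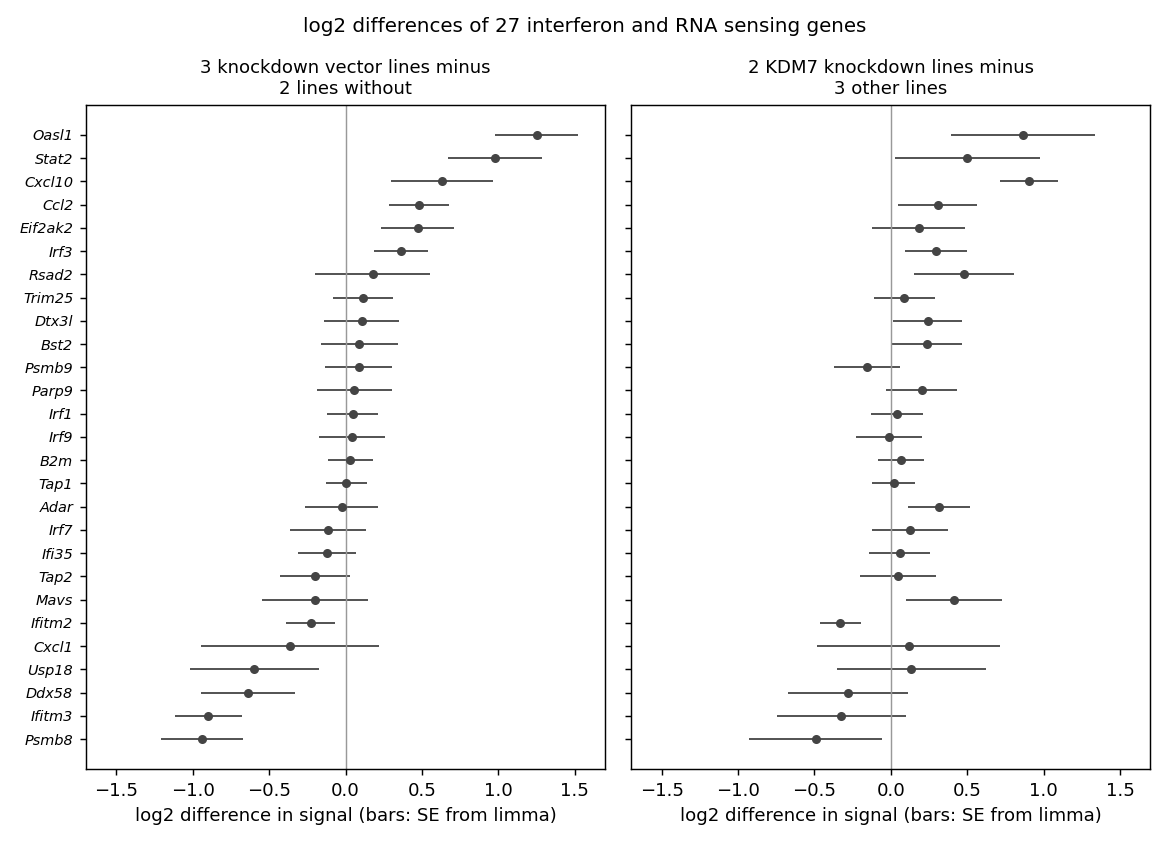
log2 difference in signal of the 27 genes for the knockdown vector lines minus the lines without (left) and the KDM7 knockdown lines minus the 3 other lines (right), with bars for the standard error from limma. Genes are in the order of the left difference; Oasl1 at the top has 1.25 and Psmb8 at the bottom -0.94, and 16 of the 27 genes lie within 1 standard error of 0 on the left.

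Of the genes with the groups apart, the interferon-inducible Oasl1, which restrains translation of Irf7 in mouse, had the largest log2 difference. It had a signal of 70.4, 102 and 81.3 in KDM7 knockdown lines 1 and 2 and the EGFP knockdown line, against 27.9 and 44.3 in the empty vector and parental lines. The arms averaged 84.6 ± 16.2 (SD, n = 3) in the knockdown vector lines and 36.1 ± 11.6 (SD, n = 2) in the lines without. The log2 difference was 1.25 (SE 0.27), or 2.38-fold, with an adjusted p of 0.540 in limma. The signal of the empty vector line was below 40.5, and with an offset of 32 added to all signals the difference was 0.78.

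Stat2, the STAT of the interferon complex, had 86.9, 74.7 and 97.5 in KDM7 knockdown lines 1 and 2 and the EGFP knockdown line, against 60.3 and 31.4 in the empty vector and parental lines. The parental line was the low one, and its gap to the next line was 1.92-fold. The log2 difference was 0.98 (SE 0.31, adjusted p = 0.589 in limma). Leaving out the parental line gave 0.51. A second probe set, under the filter, had 104, 114 and 83.4, against 48.8 and 1.66, with the parental line again lowest.

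Irf3, the factor that MAVS and TLR3 signalling activates, had the groups apart by a smaller step. Its signal was 759, 815 and 737 in KDM7 knockdown lines 1 and 2 and the EGFP knockdown line, against 697 and 513 in the empty vector and parental lines (log2 difference 0.36, SE 0.18, adjusted p = 0.672 in limma). The EGFP knockdown and empty vector lines were close, and the parental line was the low one. Its other 2 tested probe sets had log2 differences of 0.25 and 0.45, with the groups overlapping. Eif2ak2, the double-stranded RNA-activated kinase PKR that halts translation, had 367, 348 and 421 in the same knockdown vector lines, against 345 and 215 in the lines without (log2 difference 0.47, SE 0.24, adjusted p = 0.679 in limma). Here too the empty vector line was next to KDM7 knockdown line 2 and the parental line alone was low. The other 2 tested probe sets of Eif2ak2 had log2 differences of 0.41 and 0.20, with the groups overlapping. Without the parental line the differences were 0.14 for Irf3 and 0.13 for Eif2ak2. Ccl2, a monocyte chemokine, was dim, with 77.3, 53.6 and 65.7 in the knockdown vector lines, against 43.7 and 49.3 in the lines without (log2 difference 0.48, SE 0.20, adjusted p = 0.641 in limma).

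The 2 genes with all knockdown vector lines below were Psmb8 and Ifitm3. Psmb8, a catalytic subunit of the immunoproteasome that cuts peptides for class I presentation, had 343, 514 and 355 in KDM7 knockdown lines 1 and 2 and the EGFP knockdown line, against 928 and 625 in the empty vector and parental lines. The arms averaged 404 ± 95.4 (SD, n = 3) in the knockdown vector lines and 777 ± 214 (SD, n = 2) in the lines without. The log2 difference was -0.94 (SE 0.27, adjusted p = 0.566 in limma), and the empty vector line was the high one. Ifitm3, a membrane protein that blocks fusion of entering viruses, had 351.5, 384 and 261 in the knockdown vector lines, against 554 and 675 in the lines without. The arms averaged 332 ± 63.8 (SD, n = 3) in the knockdown vector lines and 614 ± 85.5 (SD, n = 2) in the lines without, and the EGFP knockdown line was lowest. The log2 difference was -0.90 (SE 0.22, adjusted p = 0.540 in limma). Its paralog Ifitm2 was brighter, with 3077, 2933 and 3749, against 3699 and 3885 (log2 difference -0.23, SE 0.16).

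**Figure D3:**
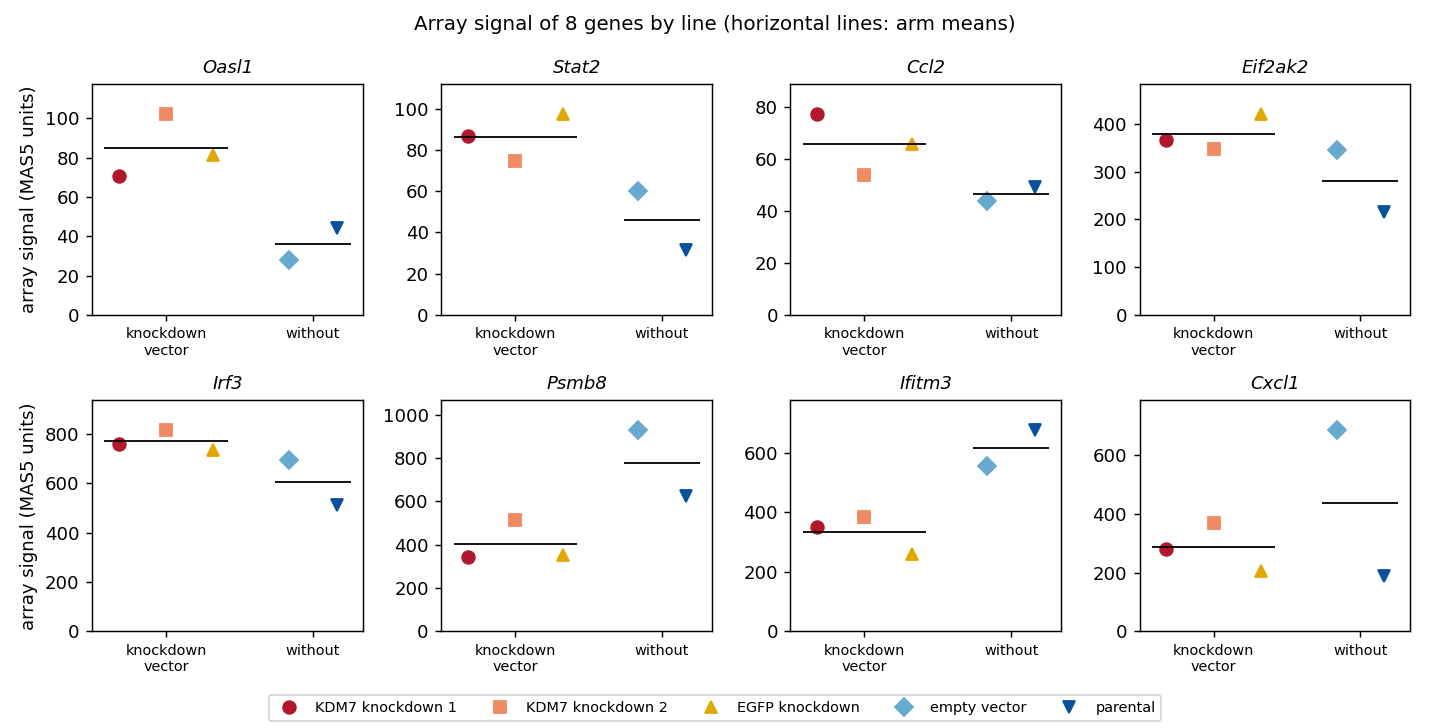
Array signal (linear axis from 0) of the 7 genes whose 3 knockdown vector lines lie on one side of both lines without, and of Cxcl1, by line, with the mean of each arm as a horizontal line. Oasl1, Stat2, Ccl2, Eif2ak2 and Irf3 lie above, Psmb8 and Ifitm3 below, and for Cxcl1 the empty vector line stands alone at 685.

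For several genes 1 line stood out, while the lines with and without a knockdown vector overlapped. Cxcl1, a neutrophil chemokine, had a signal of 282, 371 and 207 in KDM7 knockdown lines 1 and 2 and the EGFP knockdown line, against 685 and 188 in the empty vector and parental lines by its brightest probe set. Its other 2 probe sets showed the empty vector line further out, with 156, 297 and 50.2, against 913 and 110 by the one, and 91.3, 197 and 56.0, against 869 and 77.8 by the other. The empty vector line exceeded the next line 1.85-fold, 3.08-fold and 4.41-fold by these probe sets, and the parental line lay within or below the range of the knockdown vector lines for all 3. The log2 difference between the arms was -0.36 (SE 0.58, adjusted p = 0.889 in limma) and turned to 0.57 without the empty vector line. Ddx58, which encodes the RNA sensor RIG-I, had 47.2, 61.8 and 45.0 in the knockdown vector lines, against 108 and 58.1 in the empty vector and parental lines. By this probe set the empty vector line was again the high one, and the parental line lay within the knockdown vector range (log2 difference -0.64, SE 0.31, adjusted p = 0.669 in limma). The difference was -0.19 without the empty vector line and -1.08 without the parental line. Its other probe sets, under the filter, did not share this. A dimmer probe set had 34.8, 15.2 and 15.1, against 9.96 and 14.7, with the empty vector line lowest. The dimmest had 5.73, 5.92 and 2.58, against 3.39 and 38.2, with the parental line highest.

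The EGFP knockdown line was the low one for Mavs and Usp18. Mavs, the adaptor of the RNA helicases, had 572, 647 and 307 in KDM7 knockdown lines 1 and 2 and the EGFP knockdown line, against 600 and 516 in the empty vector and parental lines. Its second probe set had 201, 260 and 154, against 222 and 185, so the EGFP knockdown line was lowest by both. Usp18, a protease that removes ISG15 and dampens the interferon receptor, had 72.9, 75 and 38.2 in the knockdown vector lines, against 64.8 and 124 in the lines without. The parental line was the highest and the EGFP knockdown line the lowest. Adar, which edits adenosines in double-stranded RNA and so keeps it from being sensed, had 676, 724 and 462 in the knockdown vector lines, against 680 and 567 in the lines without, by its brightest probe set. The log2 difference of this probe set was -0.03 (SE 0.24), while 2 dimmer ones had 0.39 and 0.60, so its probe sets disagreed in sign.

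The brightest genes had small log2 differences between the arms. Ifitm2 and Ifitm3, and the genes of the Oas family, have close paralogs, so cross-hybridisation between them was not tested. B2m, the light chain of class I molecules, had 11740, 10379 and 10440 in KDM7 knockdown lines 1 and 2 and the EGFP knockdown line, against 11464 and 9798 in the empty vector and parental lines. The log2 difference was 0.03 (SE 0.15) and the groups overlapped. Ifi35, an interferon-induced leucine zipper protein, had 4002, 4418 and 3521, against 4976 and 3747 (log2 difference -0.12, SE 0.19). Trim25, the ubiquitin ligase that acts on RIG-I, had 2371, 2626 and 2449, against 2760 and 1910 (log2 difference 0.11, SE 0.20). For both the empty vector line was highest. The sign of the difference of B2m and Trim25 turned to -0.15 and -0.07 under median centring. Tap1 and Tap2, which together form the peptide transporter, and Psmb9, another immunoproteasome subunit, had log2 differences of 0.0033, -0.20 and 0.09 (SE 0.13, 0.23 and 0.22). Psmb9 thus did not share the direction of Psmb8. Of the remaining genes above the filter, Irf1, Irf7 and Irf9, transcription factors of the pathway, had 0.05, -0.12 and 0.04. Parp9 and Dtx3l, partners in an interferon-induced ubiquitin ligase, had 0.06 and 0.10, Bst2, which tethers budding viruses, had 0.09, and Rsad2, the antiviral protein viperin, had 0.18.

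By role, none of the groups lay on one side as a whole. Of 6 RNA sensing genes 3 passed the filter, with a median log2 difference of -0.20 in the knockdown vector lines relative to the lines without. All 5 IRF and STAT factors passed it, with a median of 0.05, and 4 of the 5 were above 0. Of 20 effectors 18 had a probe set of their own and 11 passed, with a median of 0.06 and 6 above 0. Of 6 antigen presentation genes 5 passed, with a median of 0.0033 and 3 above 0. Of 4 chemokines 3 passed, with a median of 0.48 that is the value of Ccl2.

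The study's own comparison sets the 2 KDM7 knockdown lines against the 3 other lines, and uses the same 5 arrays, so its values are not independent of those above. Limma called 0 of 22519 probe sets (0%) and 0 of the 27 genes, with a smallest adjusted p of 0.722 over all probe sets. Before adjustment, 1 gene of 27 (3.70%) had a limma p under 0.05, Cxcl10, against 5.56% of all probe sets. Cxcl10, a T cell chemokine induced by interferon, had 77.8 and 64.3 in KDM7 knockdown lines 1 and 2, against 38.8, 43.2 and 32.4 in the EGFP knockdown, empty vector and parental lines. Both KDM7 knockdown lines were above all others, at a log2 difference of 0.90 (SE 0.19, adjusted p = 0.879 in limma), though 2 of the 3 other lines were under the filter level of 40.5. The 27 genes had a median log2 difference of 0.12, against 0.03 over all probe sets, and 21 were above 0. Both KDM7 knockdown lines lay above all others for 2 genes (7.41%), Cxcl10 and Irf3, where 12.6% of all probe sets did so, and below for 1 (3.70%), Ifitm2, where 10.2% did. Both shares were below those of the array, and this was not tested. Ifitm2 had 3077 and 2933 in the KDM7 knockdown lines, against 3749, 3699 and 3885 in the others (log2 difference -0.33, SE 0.13, adjusted p = 0.879 in limma).

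Against the EGFP knockdown line alone, which also carries a knockdown vector, the KDM7 knockdown lines had a median log2 difference of 0.26 over the 27 genes, where all probe sets had -0.02. Of the 27, 21 were above 0. Limma called 0 of the 27 and 0 of all probe sets (0%), with a smallest adjusted p of 0.183 over all, and here the EGFP knockdown line, a single array, is assumed to vary like the other lines. Before adjustment, 3 of 27 (11.1%) had a limma p under 0.05, against 5.76% of all probe sets. By their brightest probe sets they were Mavs (log2 difference 0.98, SE 0.21, adjusted p = 0.844 in limma), Cxcl10 (0.87, SE 0.27) and Adar (0.60, SE 0.21). By these probe sets all 3 were higher in both KDM7 knockdown lines than in the EGFP knockdown line. The other 2 tested probe sets of Adar had log2 differences of -0.27 (SE 0.27) and 0.09 (SE 0.61), so they did not share this.

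Seen line by line, the 27 genes were low in the parental and EGFP knockdown lines and high in the empty vector line. With each gene centred on its mean over the 5 lines, the median deviation in log2 was 0.06, 0.10 and -0.17 in KDM7 knockdown lines 1 and 2 and the EGFP knockdown line, against 0.17 and -0.20 in the empty vector and parental lines. Over all probe sets these medians were 0.02, 0.02, 0.03, 0.0045 and -0.04. The parental line had the lowest signal for 13 of the 27 genes (48.1%), where it had the lowest for 31.5% of all probe sets. The empty vector line had the highest for 10 (37.0%), where it had the highest for 18.3% of all. By these medians the lines without a knockdown vector were the furthest apart, with 1 at each end, though the EGFP knockdown line was close to the parental line. Gene by gene the knockdown vector lines did not always lie between them. The EGFP knockdown line had the lowest signal for 8 genes (29.6%), where it had the lowest for 18.7% of all probe sets. Each KDM7 knockdown line had the highest for 5 (18.5%), where lines 1 and 2 had the highest for 16.7% and 18.7% of all. No test of a single line was made, since each is 1 array.

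**Figure D4:**
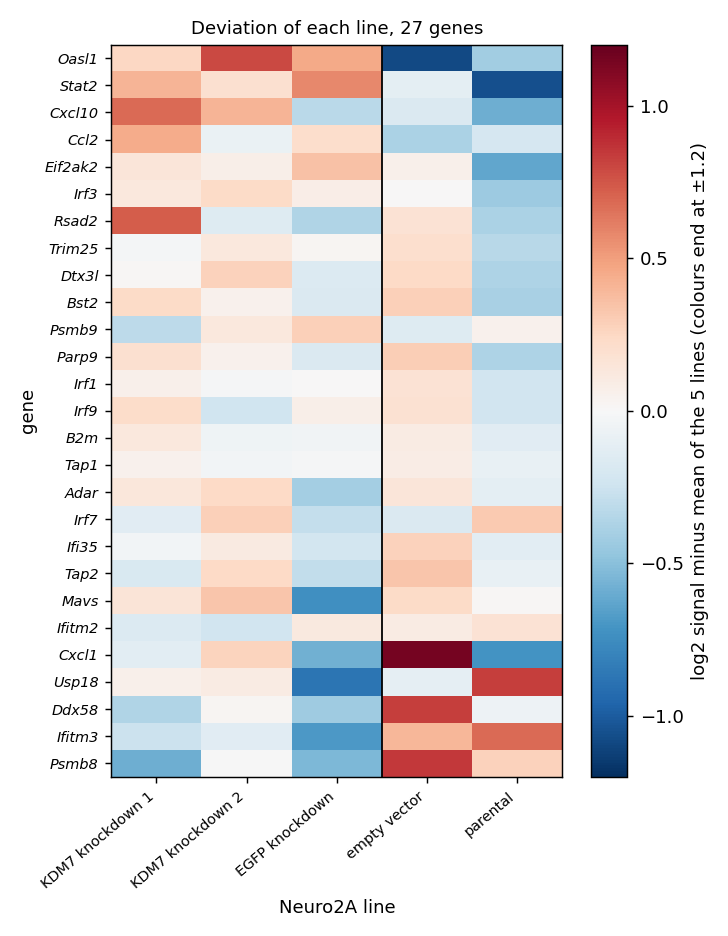
log2 signal of each of the 27 genes minus its mean over the 5 lines, in colour (red above, blue below), with the 3 knockdown vector lines left of the black line and the 2 lines without right of it. Genes are in the order of the difference between the arms, and the empty vector column is mostly red while the parental column is mostly blue.

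Other genes of the pathway were taken from a list that leaves out the 41. Of 98 listed symbols 84 were found and 60 passed the filter, and limma called 0 of the 60 in any of the 3 comparisons. Before adjustment 3 had a limma p under 0.05 for the knockdown vector, where 7.82% of all probe sets did, and 4 for KDM7 against the 3 other lines, where 5.56% did. All knockdown vector lines lay above both lines without for 7 of the 60 (11.7%), against 15.9% of all probe sets, and below for 9 (15.0%), against 9.69%. The median log2 difference of the 60 was -0.05. Socs3, an inhibitor of cytokine receptor signalling, had 89.0, 79.0 and 53.5 in KDM7 knockdown lines 1 and 2 and the EGFP knockdown line, against 30.2 and 38.99 in the empty vector and parental lines (log2 difference 1.07, SE 0.27, adjusted p = 0.540 in limma). Its signal in the lines without was under 40.5. Tyk2, a kinase of the interferon receptor, had 304, 275 and 279, against 247 and 122, with the parental line low as for Stat2 (log2 difference 0.72, SE 0.31). Below were the adaptor Myd88 (log2 difference -0.81, SE 0.34), Il10rb, a receptor chain shared by type III interferons and IL-10 (-0.59, SE 0.20), and Cgas, the cytosolic DNA sensor (-0.52, SE 0.16). Irf2, Trim21 and Ifngr1 were below by -0.37, -0.35 and -0.34, and Trim56 and Traf6 above by 0.29 and 0.29. Of these, Socs3 and Il10rb also had both KDM7 knockdown lines on one side of all 3 others, at 1.08 (SE 0.27) and -0.62 (SE 0.19).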

How the data were processed

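The authors deposited linear probe set intensities. MAS5 is named in the submitters' processing notes, without a version. The mean after trimming 2% was 500.0 on every array, so no further normalization was applied. Of 45101 probe sets, 64 AFFX controls were dropped. Signals were log2-transformed without an offset, and the 22519 probe sets with a 5-line mean at or above the median were tested. A gene is given by its brightest probe set. Gene numbers of all 39 genes were found, with the same symbol, in the GRCm38.p6 gene table. The signals carry no genome build.

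Models were fitted with limma 3.58.1 under R 4.3.3, using lmFit and plain eBayes, to 2 arms with 3 residual degrees of freedom, and to 3 arms with 2 for KDM7 against EGFP, with Benjamini-Hochberg adjustment over all 22519. The 2-arm model was also run on simulated data, with shifts larger than the log2 difference of any listed gene tested. That run does not show how well differences of their size are found. Alternatives were quantile normalization, median centring, cyclic loess, other filters, an offset of 32, eBayes with trend and robust, an adjusted p under 0.10, the mean over probe sets and leaving out each line. Members, lists and tests were chosen with earlier results of these data known. Single values are given, by rule, for genes with the arms apart, genes with 1 line at least 1.5-fold beyond all others, the 5 brightest and those whose probe sets disagree. Cxcl10, Ifit3, Mx1, Oas1a and the interferon genes were singled out after their values were seen.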

Additional observations from a re-analysis of the deposited data

How the results depend on the processing

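Under every alternative run, 0 of the listed genes passed the threshold in any of the 3 comparisons. The count over all probe sets was 0 except for KDM7 against the 3 other lines with trend and robust (2), KDM7 against EGFP with trend or with trend and robust (1 each) and the knockdown vector comparison without the parental line (1). Leaving out single lines gave 0 to 1 in that comparison. The 5 genes with all knockdown vector lines above became 2 with median centring, 3 with cyclic loess and 2 with the filter at the 70th percentile, where fewer genes are tested, and 5 to 15 when lines were left out. The 2 below became 4 with quantile normalization, 5 with median centring and 4 with cyclic loess, and 2 to 11 when lines were left out. Over all probe sets the shares moved too, from 15.9% above and 9.69% below. They were 13.5% and 11.2% with quantile normalization, 5.49% and 26.9% with median centring, and 13.3% and 11.98% with cyclic loess. With the filter at the 70th percentile they were 14.5% and 11.2%. With lines left out they ran from 21.5% to 37.4% above and from 13.6% to 26.8% below. The median difference between the arms ran from -0.15 without the parental line to 0.25 without the empty vector line, against 0.04 in the main run. This median was also negative under median centring (-0.14), without KDM7 knockdown line 1 (-0.03) and when the 70th percentile filter was used (-0.03). It stayed positive under the other alternatives. Its sign thus depends on single lines, on the normalization and on the filter. Of 187 alternative log2 differences of the 16 genes given line by line, 176 kept their sign, 11 turned and 0 passed the threshold. The sign turned for B2m (-0.15) and Trim25 (-0.068) under median centring, and for Adar (0.32) with the mean over probe sets. With lines left out B2m ran from -0.081 to 0.15, Trim25 from -0.15 to 0.38, Adar from -0.16 to 0.17, Cxcl1 from -1.30 to 0.57, Ifi35 from -0.33 to 0.081 and Mavs from -0.41 to 0.13. Beyond these constructions, the cause was not tested. No paired analysis was possible because the labels number only the KDM7 knockdown lines. With 5 arrays and a median signal of 311 for the tested genes, small differences are not detectable, and values under 40.5 are uncertain in size. Large differences can be missed too. Kdm7a itself did not pass in KDM7 against the 3 other lines. Its brightest probe set had a log2 difference of -1.99 (SE 0.27, adjusted p = 0.855 in limma). A count of 0 therefore does not show that large changes were absent.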

Other observations

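The probe set that the annotation gives to both Isg15, the ubiquitin-like interferon effector, and Gm9706 lies outside the rule for the listed genes, and its values were chosen after they were seen. Its signal was 552, 517 and 92.0 in KDM7 knockdown lines 1 and 2 and the EGFP knockdown line, against 988 and 225 in the empty vector and parental lines. The empty vector line was highest and the EGFP knockdown line lowest, as for 2 of the 3 Cxcl1 probe sets. The log2 difference was -0.67 between the arms (SE 1.02, adjusted p = 0.883 in limma) and 2.54 for the KDM7 knockdown lines minus the EGFP knockdown line (SE 0.92, adjusted p = 0.859 in limma). Which of both genes the signal comes from cannot be told apart.

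H2-K1 and H2-D1 encode class I heavy chains, and cross-hybridisation between them was not tested. H2-K1 had 3775, 3792 and 3383 in KDM7 knockdown lines 1 and 2 and the EGFP knockdown line, against 4645 and 2361 in the empty vector and parental lines. H2-D1 had 6118, 6583 and 6106, against 7271 and 4046 in the same order. For both, the empty vector line was highest, the parental line lowest and all 3 knockdown vector lines lay between. Also chosen after their values were seen, with the same order, were Lgals3bp (1045, 1039 and 674, against 1321 and 521) and Tapbp, a chaperone of peptide loading (1642, 1494 and 1299, against 1947 and 1205). Of the other listed antigen presentation genes, Psme1 and Canx shared this order. Calr and Erap1 had the parental line highest, Psmb10 had KDM7 knockdown line 1 highest, Pdia3 had the empty vector line lowest and Tapbpl had KDM7 knockdown line 1 lowest. The share of all probe sets with this order was not counted. Irgm2, an interferon-inducible GTPase, had 67.7, 106 and 13.6, against 53.8 and 32.1, with the KDM7 knockdown lines highest and the EGFP knockdown line lowest.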
